A study of Mus musculus with 4 samples.

Results

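Ribosome biogenesis genes encode the proteins that transcribe, modify, cut and fold ribosomal RNA (rRNA) and load it with ribosomal proteins. The 41 genes described here were listed by name as known factors of the pathway, with earlier results of these data known, and all 41 were found in the deposited table, which held transcripts of 20804 protein-coding genes. Each gene stands for its transcript with the longest gene body. RNA was measured in immortalized mouse embryonic fibroblasts (MEF) of C57BL/6 mice. They came from embryos of embryonic day 15.5, without head, limbs, tail, viscera, liver and heart, and were immortalized with SV40. Hmga2+/+ MEF carry the wild-type gene for HMGA2, an architectural chromatin protein, and Hmga2-/- MEF lack it (the labels write this genotype as Hmga-/-). Both were starved overnight in 1 % FCS and then received water (Ctrl) or 10 ng/ml transforming growth factor beta 1 (TGFB1) for 24 h, so that starvation and immortalization were shared by all groups.

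Each of the 4 conditions was 1 library. There is no replicate error and no test was run within a genotype, and the intervals given are 95% intervals of counting error alone. How many embryos or separate cell lines stand behind a library was not given in the sources used here, so genotype and cell line cannot be told apart. Levels are RPKM, the reads per kilobase of transcript scaled to the mapped reads of a library. They are shares of a library, and total RNA per cell was not measured. In bulk libraries fewer cells of a type and less RNA per cell cannot be told apart. A gene is said to rise or fall where it differed at least 1.5-fold between 2 libraries, and the background is the 10314 protein-coding genes with a mean of at least 1 RPKM, a filter that all 41 members passed.

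The step size of the low values gave 56140000 to 57300000 mapped reads per library. Hmga2 itself stood at 14.8 RPKM in Hmga2+/+ Ctrl, at 40.7 RPKM in Hmga2+/+ TGFB1 and at 0 in both Hmga2-/- libraries. All 5 TGFB1 treatment markers rose in both genotypes. Of the 9 fibroblast markers, 8 or 9 reached 1 RPKM in every library. None of the 6 epithelial and none of the 5 erythroid markers did so in any library, 1 of 5 skeletal muscle markers did so in 1 library, and 1 or 2 of 5 endothelial and 1 of 6 leukocyte markers did so in each. The summed RPKM of the endothelial markers ranged from 3.89 to 8.16 and that of the leukocyte markers from 1.33 to 1.71. These sums came almost wholly from Kdr and Tek and from Cd68. The other markers of these lists had mean levels of at most 0.0635 RPKM. Whether such cells were present, and their part in the values below, was not tested.

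Ribosome production starts in the nucleolus, where RNA polymerase I transcribes the ribosomal DNA into a long precursor. Small nucleolar ribonucleoproteins (snoRNPs) modify that precursor at many positions, box C/D particles by ribose methylation and box H/ACA particles by pseudouridylation. Large assemblies of factors then cut and fold the precursor into the small and the large subunit. The demand for these factors follows cell growth, and the transcription factor MYC is a well known activator of their genes.

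On TGFB1 the ribosome biogenesis genes rose together in both genotypes. In Hmga2+/+ MEF 36 of 41 members rose and 0 fell, where 11.1% of all genes rose and 15.3% fell. In Hmga2-/- MEF 37 members rose and 0 fell, against 12.8% and 13.7% of all genes. The same 36 members rose in both, against 9.39% of all genes. The median member changed by 1.03 on the log2 scale (2.04-fold) in Hmga2+/+ MEF and by 0.97 (1.96-fold) in Hmga2-/- MEF, while the medians over all genes were -0.04 and 0.02. A rise of at least 2-fold was found for 21 members in Hmga2+/+ MEF and 19 in Hmga2-/- MEF, beside 4.44% and 5.08% of all genes. For 39 of 41 members both TGFB1 libraries lay above both Ctrl libraries, which held for 37.6% of all genes. The other two were Ubtf and Polr1c.

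**Figure D1:**
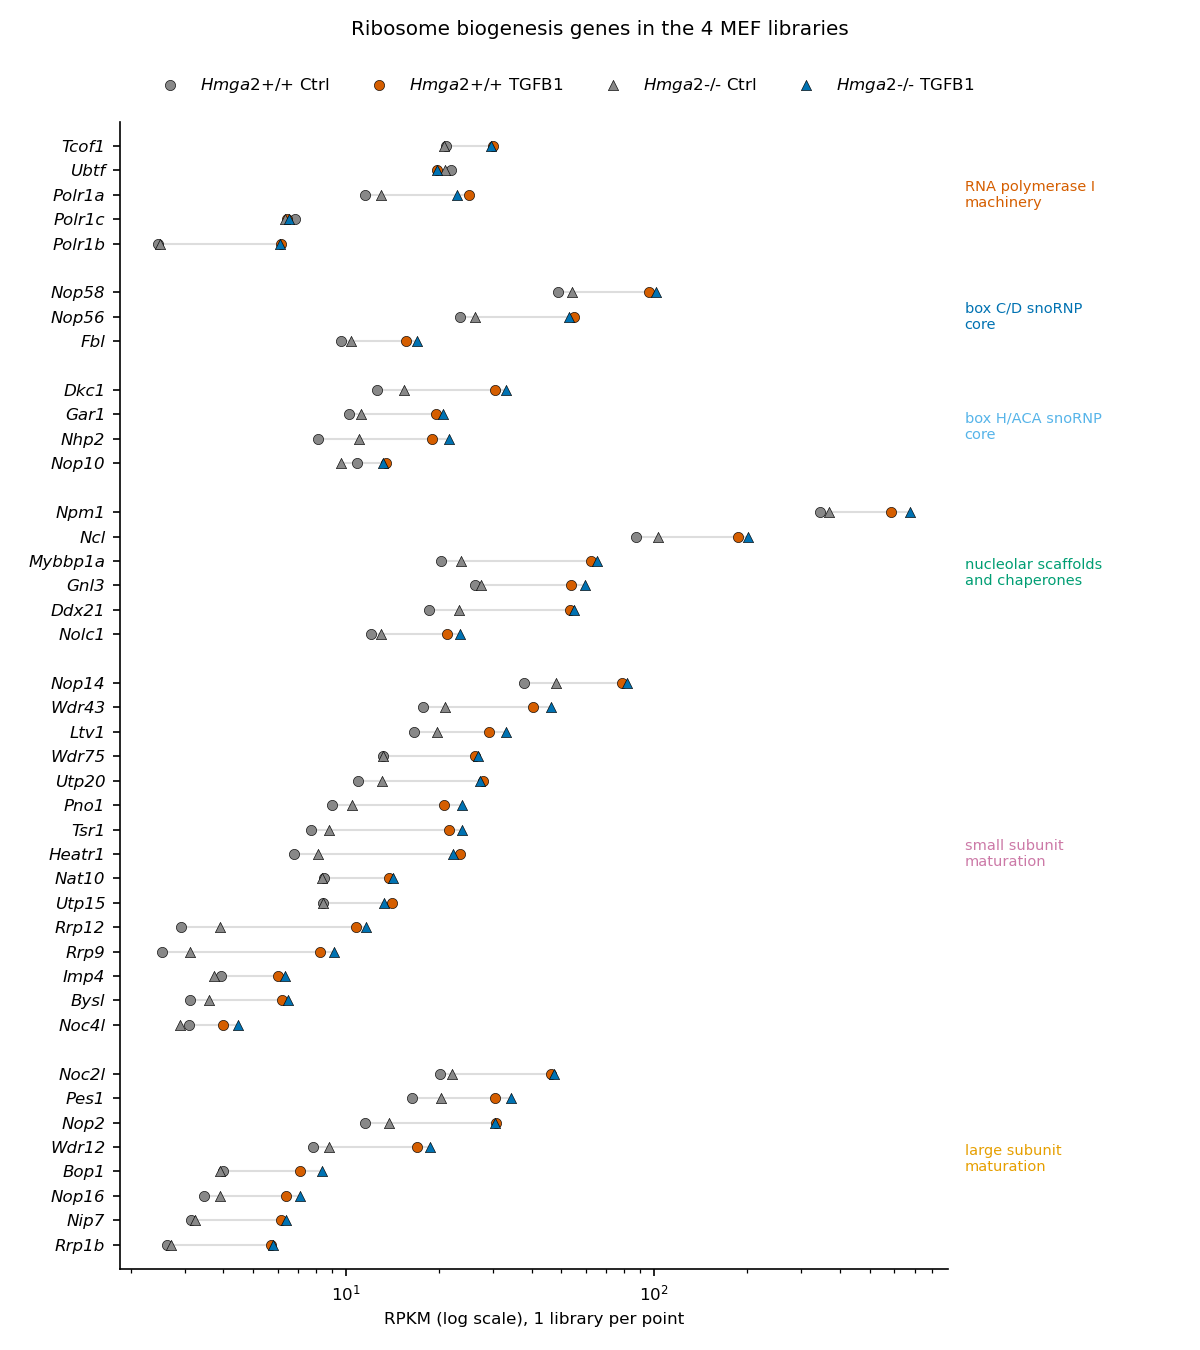
Level of each of the 41 ribosome biogenesis genes in the 4 libraries (RPKM, log axis), ordered by role and by mean level within a role. Circles are Hmga2+/+ MEF and triangles Hmga2-/- MEF, grey symbols are Ctrl and coloured symbols TGFB1, and each symbol is 1 library. The coloured symbols lie to the right of the grey ones for 39 of 41 members.

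The levels themselves covered a wide range. In Hmga2+/+ Ctrl the members ran from 2.45 RPKM (Polr1b) over a median of 10.8 to 346 RPKM (Npm1), and the median over all genes was 7.52 RPKM. Under TGFB1 the median of the members was 21.3 RPKM in Hmga2+/+ MEF and 22.8 RPKM in Hmga2-/- MEF, while the median over all genes was 7.43 and 7.58 RPKM. The lowest read count behind any member value was 214, for Rrp9 in Hmga2+/+ Ctrl, so that no member was near the limit of detection. Members of high and of low level had median log2 changes in Hmga2+/+ MEF of 1.10 (21 members at or above the median level) and 0.96 (20 below it). Level here is the mean over all 4 libraries. It includes the TGFB1 libraries, so this split is not independent of the change.

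The promoters of the members were read because the group moved together and because the binding site of MYC is known. MYC, as a dimer with MAX, binds the E-box, which reads CACGTG on either strand. RefSeq promoter windows (GRCm38.p6), each 300 bases with 250 before and 50 after the gene start, were at hand for 36 of 41 members. Fbl, Rrp12, Tcof1, Bop1 and Npm1 had no entry. An E-box was found in 9 of the 36 windows (25%), in 12.4% of the windows of 8191 expressed genes and in 8.09% of all 27025 windows. Among 76 other ribosome biogenesis factors with a window 21.1% held one. In 7 of the 9 the site lay after the RefSeq start and in 2 before it. The RefSeq start need not be that of the transcript in the table, which for Mybbp1a begins after the site. These sites are shown because they are the stretches in which the matched members are alike. Each is 30 bases, 5′ to 3′ on the strand of the gene, with the E-box in capitals.
Mybbp1a, chr11:72441347-72441376, + strand: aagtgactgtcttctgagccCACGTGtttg
Tsr1, chr11:74898092-74898121, + strand: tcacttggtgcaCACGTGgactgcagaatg
Nop2, chr6:125131811-125131840, + strand: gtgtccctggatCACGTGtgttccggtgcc
Utp20, chr10:88826765-88826794, - strand: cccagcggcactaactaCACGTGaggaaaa
Pno1, chr11:17211540-17211569, - strand: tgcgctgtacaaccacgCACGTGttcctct
Wdr43, chr17:71616220-71616249, + strand: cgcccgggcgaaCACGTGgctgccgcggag
Pes1, chr11:3963965-3963994, + strand: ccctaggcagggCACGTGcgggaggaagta
Ltv1, chr10:13193092-13193121, - strand: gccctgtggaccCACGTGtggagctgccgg
Imp4, chr1:34439696-34439725, + strand: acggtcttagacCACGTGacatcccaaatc

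The sites are listed from the largest to the smallest change of their gene on TGFB1 in Hmga2+/+ MEF. The 2 sites before the RefSeq start were those of Imp4, with the first base of the E-box at -121, and of Nop2, at -60. The median log2 change of the 9 members with an E-box was 1.21 in Hmga2+/+ MEF and 1.14 in Hmga2-/- MEF. For the 27 members whose window held none it was 1.03 and 0.96, and their range of -0.15 to 1.79 enclosed that of the 9, which was 0.62 to 1.62. On either strand an ETS site (CCGGAAGT) was found in 22.2% of member windows, 35.5% of those of the other factors and 10.4% of those of expressed genes. Further motifs were a GC box (GGGCGG) in 75.0% of member windows and 72.6% of those of expressed genes, a TATA box (TATAAA) in 5.56% and 8.11%, and the SMAD palindrome (GTCTAGAC) in 0 of 36 and 0.317%. These matches describe letters in a window and do not show binding.

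The RNA polymerase I machinery was the most divided role. In both genotypes 2 of its 5 members rose, and its median log2 change was 0.50 in each. Polr1a (chr6:71909053-71980267, + strand of mm10) encodes the largest subunit of the enzyme. It stood at 11.6 RPKM in Hmga2+/+ Ctrl, 25.1 in Hmga2+/+ TGFB1, 13.0 in Hmga2-/- Ctrl and 22.8 in Hmga2-/- TGFB1, with a log2 change of 1.12 (1.07 to 1.17) in Hmga2+/+ MEF and 0.81 (0.76 to 0.86) in Hmga2-/- MEF. Polr1b encodes the second catalytic subunit and had the lowest Ctrl level of all members. It went from 2.45 to 6.16 RPKM in Hmga2+/+ MEF and from 2.48 to 6.09 RPKM in Hmga2-/- MEF, close to the same level in both genotypes. Polr1c, a subunit shared with RNA polymerase III, hardly moved, at 6.83 and 6.44 RPKM in Hmga2+/+ MEF without and with TGFB1 and at 6.32 and 6.54 RPKM in Hmga2-/- MEF.

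Ubtf encodes the upstream binding factor that coats active ribosomal DNA, and it was the member with the lowest response. Its levels were 21.8 and 19.7 RPKM in Hmga2+/+ MEF and 20.9 and 19.7 RPKM in Hmga2-/- MEF, a log2 change of -0.15 (-0.21 to -0.10) and -0.08 (-0.14 to -0.03), which is below the 1.5-fold used here. Tcof1 encodes treacle, a nucleolar partner of the polymerase. At 21.1 and 29.9 RPKM in Hmga2+/+ MEF and 20.9 and 29.6 RPKM in Hmga2-/- MEF, it changed by 0.50 on the log2 scale in both genotypes, 1.42-fold and thus just below the threshold.

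All 3 core proteins of the box C/D snoRNPs rose in both genotypes, with medians of 0.97 and 0.91. Nop56, one of the paired scaffold proteins of the particle, was at 23.4 and 54.9 RPKM in Hmga2+/+ MEF without and with TGFB1 and at 26.1 and 52.9 RPKM in Hmga2-/- MEF. Nop58, the other scaffold protein, was the more abundant, at 48.9 and 95.9 RPKM against 54.1 and 101.6 RPKM. Fbl, the methyltransferase fibrillarin, went from 9.65 to 15.6 RPKM and from 10.4 to 17.0 RPKM and so had the smallest change of the trio, 0.69 and 0.71 on the log2 scale. Processed pseudogenes carry the sequence of 65.7% of the 70-base stretches of Fbl and of 36.5% of those of Nop56, so reads of these genes may have been placed elsewhere and their levels are less certain.

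The box H/ACA core split into 3 members that rose and 1 that did not pass the threshold. Dkc1 encodes dyskerin, the pseudouridine synthase of the particle, and stood at 12.6 and 30.5 RPKM in Hmga2+/+ MEF and at 15.4 and 32.9 RPKM in Hmga2-/- MEF, a log2 change of 1.27 (1.19 to 1.35) and 1.10 (1.03 to 1.17). Nhp2, an RNA-binding core protein, was at 8.13 and 19.0 RPKM and at 11.1 and 21.5 RPKM. Gar1, which helps to load and release the substrate, was at 10.2 and 19.6 RPKM and at 11.1 and 20.7 RPKM. These 3 were 1.86- to 2.41-fold higher with TGFB1 in either genotype. Nop10, the smallest core protein, changed by 0.32 and 0.46 on the log2 scale, from 10.8 to 13.5 RPKM and from 9.61 to 13.2 RPKM.

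Every one of the 6 nucleolar scaffold and chaperone genes rose in both genotypes, and this role held the most abundant members. Npm1, the histone and ribosome chaperone nucleophosmin, was at 346 and 586 RPKM in Hmga2+/+ MEF and at 370.0 and 678 RPKM in Hmga2-/- MEF, a change of 1.69-fold and 1.83-fold, with pseudogenes sharing 32.9% of its stretches. Ncl, the RNA-binding protein nucleolin, was at 87.5 and 187 RPKM and at 103 and 202 RPKM. Its only transcript in the table measures 8230 bases. These 2 genes had the highest levels of all members in every library. Short snoRNA transcripts lie within the gene bodies of Ncl, Nop56, Nop58, Gnl3, Wdr43 and Tsr1 and are listed apart. Only Snora75 and Snord82, both in Ncl, had over 30 reads in each library. Snora75 stood at 10.2 and 16.7 RPKM in Hmga2+/+ MEF (66 and 110 reads) and at 8.76 and 19.7 RPKM in Hmga2-/- MEF (57 and 129 reads). Snord82 was lower with TGFB1 in Hmga2+/+ MEF, at 13.3 and 11.2 RPKM (50 and 43 reads). In Hmga2-/- MEF it was higher, at 8.96 and 12.6 RPKM (34 and 48 reads). The reads of both cannot be told apart from those of their host. No counting interval was computed for these few reads, and the opposite directions of Snord82 were not tested.

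Mybbp1a (chr11:72441378-72451550, + strand), a nucleolar MYB-binding protein whose E-box is printed above, led this role. It went from 20.3 to 62.5 RPKM in Hmga2+/+ MEF (3.07-fold) and from 23.7 to 65.1 RPKM in Hmga2-/- MEF (2.75-fold). Ddx21 (chr10:62580247-62602298, - strand), an RNA helicase that links polymerase I transcription and processing, was next, at 18.6 and 53.4 RPKM and at 23.2 and 54.8 RPKM. Gnl3, the GTPase nucleostemin, went from 26.3 to 53.5 RPKM and from 27.4 to 59.7 RPKM. Nolc1, a chaperone of snoRNPs also known as Nopp140, went from 12.1 to 21.3 RPKM and from 13.0 to 23.4 RPKM. Mybbp1a and Ddx21 had the larger log2 changes, 1.62 (1.57 to 1.67) and 1.52 (1.47 to 1.57) in Hmga2+/+ MEF, and Npm1 and Nolc1 the smaller, 0.76 (0.74 to 0.78) and 0.82 (0.75 to 0.89).

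Small subunit maturation is the largest role and held the 3 largest log2 changes among the members in Hmga2+/+ MEF, those of Rrp12, Heatr1 and Rrp9. In Hmga2+/+ MEF 14 of its 15 members rose and in Hmga2-/- MEF all 15, with medians of 1.06 and 1.02. Rrp12 (chr19:41862851-41896153, - strand), a HEAT-repeat protein needed for export of the small subunit precursor, had the largest change in both genotypes. It stood at 2.91 RPKM in Hmga2+/+ Ctrl (694 reads), 10.8 in Hmga2+/+ TGFB1 (2631 reads), 3.90 in Hmga2-/- Ctrl (940 reads) and 11.6 in Hmga2-/- TGFB1 (2820 reads), a log2 change of 1.89 (1.77 to 2.02) and 1.58 (1.47 to 1.68). That was higher than the change of 98.8% of all genes in Hmga2+/+ MEF and of 98.1% in Hmga2-/- MEF.

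Heatr1 (chr13:12395375-12438893, + strand) belongs to the first subcomplex to bind the growing precursor, together with Utp15, Wdr43 and Wdr75. It was at 6.77 and 23.4 RPKM in Hmga2+/+ MEF and at 8.10 and 22.3 RPKM in Hmga2-/- MEF, 3.45-fold and 2.75-fold. A second transcript of the gene, 2570 bases long, moved likewise, at 7.83 and 28.1 RPKM and at 9.80 and 27.2 RPKM. Another, of 1345 bases, also rose in both genotypes, at 6.53 and 20.1 RPKM and at 7.21 and 20.4 RPKM. Under TGFB1 this transcript was not lower in Hmga2-/- MEF. Its 3 partners among the members moved less. Wdr43 was at 17.8 and 40.5 RPKM and at 20.9 and 46.3 RPKM, Wdr75 at 13.2 and 26.2 RPKM and at 13.2 and 26.8 RPKM. Utp15 was at 8.43 and 14.1 RPKM and at 8.41 and 13.2 RPKM. Among the members of this one subcomplex the rise thus ran from 1.67-fold (Utp15) to 3.45-fold (Heatr1) in Hmga2+/+ MEF.

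Rrp9 (chr9:106477309-106485415, + strand), a protein of the U3 snoRNP that guides early cleavage, was at 2.53 and 8.25 RPKM in Hmga2+/+ MEF and at 3.10 and 9.11 RPKM in Hmga2-/- MEF, a log2 change of 1.71 (1.48 to 1.93) and 1.55 (1.35 to 1.76). Imp4, which holds U3 to the precursor, changed less, from 3.93 to 6.03 RPKM and from 3.73 to 6.33 RPKM. Utp20, a very large scaffold protein, went from 11.0 to 27.8 RPKM and from 13.1 to 27.3 RPKM. Nop14 and Noc4l encode a pair of proteins that work as a complex, and they differed in both level and response. Nop14 was at 37.8 and 78.8 RPKM and at 47.9 and 81.8 RPKM. Noc4l was at 3.08 and 3.99 RPKM and at 2.88 and 4.45 RPKM, 1.30-fold in Hmga2+/+ MEF, below the threshold, and 1.54-fold in Hmga2-/- MEF, just above it. The interval of its log2 change in Hmga2-/- MEF, 0.42 to 0.83, includes the threshold of 0.58, and the difference between its responses, 0.25 (-0.03 to 0.54), includes 0.

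Nat10, the acetyltransferase of small subunit rRNA, was at 8.46 and 13.8 RPKM and at 8.38 and 14.2 RPKM. The late factors among the members, which act on the nearly finished small subunit, all rose. Tsr1, a GTPase-like factor, was at 7.72 and 21.6 RPKM and at 8.83 and 23.7 RPKM, and Pno1, which shields the end of the rRNA, at 9.03 and 20.8 RPKM and at 10.5 and 23.9 RPKM. Bysl, the bystin protein, went from 3.12 to 6.19 RPKM and from 3.60 to 6.48 RPKM, and Ltv1, an export factor, from 16.6 to 29.0 RPKM and from 19.7 to 33.2 RPKM. Tsr1, at 2.80-fold and 2.68-fold, was the strongest of these 4, and Ltv1, at 1.74-fold and 1.68-fold, the weakest.

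All 8 large subunit factors rose in both genotypes, with responses between 0.83 (Bop1) and 1.41 (Nop2) on the log2 scale in Hmga2+/+ MEF and between 0.75 (Pes1) and 1.14 (Nop2) in Hmga2-/- MEF. Nop2 (chr6:125131883-125144753, + strand), an rRNA cytosine methyltransferase, was at 11.5 and 30.6 RPKM and at 13.8 and 30.4 RPKM. Pes1, Bop1 and Wdr12 form the PeBoW complex, which is needed to process a spacer of the precursor. Pes1 was at 16.4 and 30.5 RPKM and at 20.4 and 34.2 RPKM, Bop1 at 3.99 and 7.11 RPKM and at 3.89 and 8.34 RPKM, and Wdr12 at 7.82 and 16.9 RPKM and at 8.81 and 18.7 RPKM. In Hmga2+/+ MEF the 3 partners rose 1.86-, 1.78- and 2.16-fold, in Hmga2-/- MEF 1.68-, 2.14- and 2.12-fold.

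Noc2l, which accompanies the large subunit precursor through the nucleus, was the most abundant of this role, at 20.2 and 46.1 RPKM and at 22.0 and 47.3 RPKM. Rrp1b, a nucleolar protein of the same pathway, was at 2.63 and 5.70 RPKM and at 2.69 and 5.78 RPKM. Nop16 was at 3.46 and 6.38 RPKM and at 3.91 and 7.07 RPKM, and Nip7 at 3.13 and 6.16 RPKM and at 3.23 and 6.40 RPKM. In Hmga2+/+ MEF the change was 1.85-fold for Nop16 and 2.28-fold for Noc2l, and over the role it ran from 1.78-fold (Bop1) to 2.66-fold (Nop2).

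**Figure D2:**
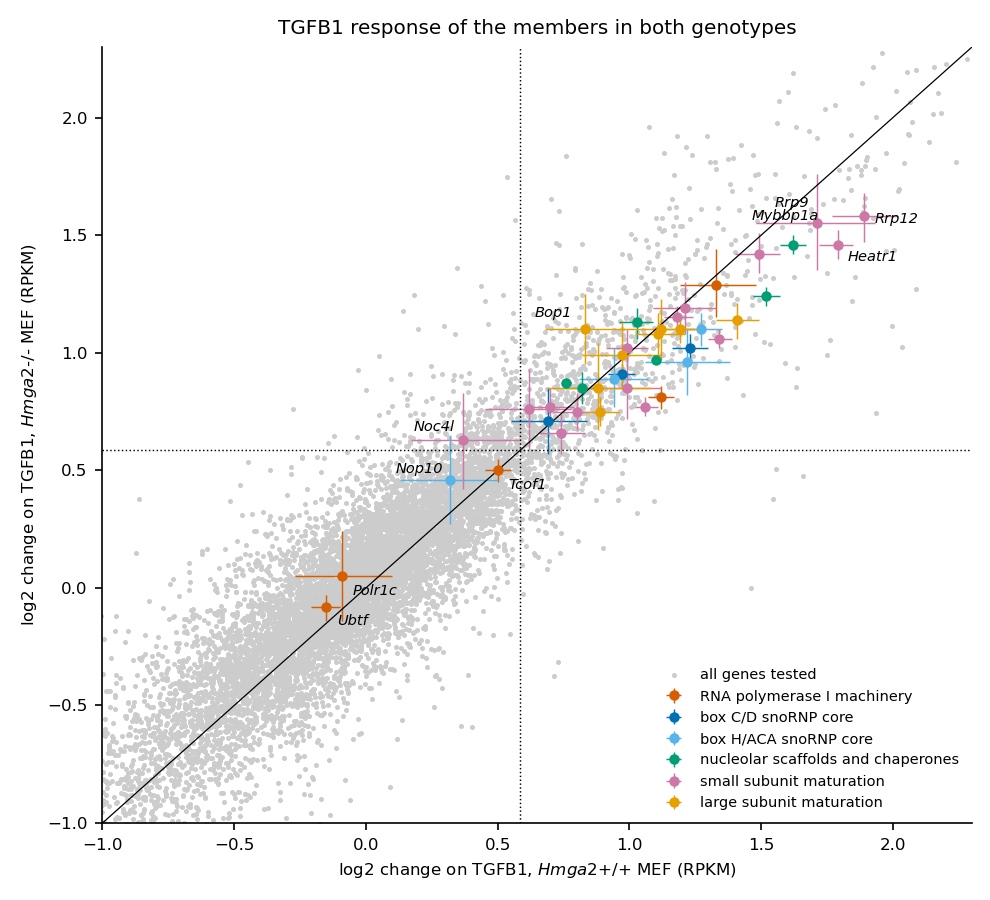
Log2 change on TGFB1 in Hmga2+/+ MEF (x axis) and Hmga2-/- MEF (y axis) for the 41 members (coloured by role) and for all genes tested (grey). Bars are 95% intervals of counting error, dotted lines mark 1.5-fold, the diagonal marks equal change, and genes beyond the axes are not drawn. Of the members, 36 lie above both dotted lines, and Rrp12, Heatr1, Rrp9 and Mybbp1a lie highest.

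Across the 41 members the log2 changes of the genotypes, which share no library, had a Pearson r of 0.95, as over all genes (0.94). Genes are not independent replicates and this is a description. No member differed 1.5-fold in its response between the genotypes, against 2.73% of all genes. The difference of the log2 changes, Hmga2-/- minus Hmga2+/+, was negative for 27 members and positive for 14, with a median of -0.05 where that over all genes was 0.05. Its interval lay below 0 for 14 members, against 15.5% of all genes, and above 0 for 3, against 25.9%. When the libraries were rescaled by the median ratio or the upper quartile, 32 members had the smaller change in Hmga2-/- MEF and 9 the larger. Heatr1 was the most negative at -0.33 (-0.41 to -0.24), followed by Rrp12 at -0.32 (-0.48 to -0.16), Polr1a at -0.31 (-0.38 to -0.23), Nop14 at -0.29 (-0.35 to -0.23), Ddx21 at -0.28 (-0.35 to -0.22) and Utp20 at -0.28 (-0.34 to -0.22). The 3 members on the other side were Bop1 at 0.27 (0.06 to 0.48), Npm1 at 0.12 (0.09 to 0.15) and Gnl3 at 0.10 (0.01 to 0.19). These intervals hold counting error alone, and whether the differences exceed the spread between cultures could not be tested.

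The comparison of the genotypes was made without and with TGFB1, and it cannot tell loss of HMGA2 from a difference between cell lines. It uses the same 4 libraries as the comparisons above and is not independent of them. No member passed 1.5-fold in either state. In the Ctrl libraries 0 of 41 members rose or fell in Hmga2-/- MEF, where 1.91% of all genes rose and 1.15% fell. Most members were nevertheless slightly higher in Hmga2-/- MEF, 32 against 9 lower. Their median log2 difference was 0.16 (all genes -0.01, of which 46.5% were higher by any amount). The counting interval lay above 0 for 24 members, against 23.4% of all genes, and below 0 for 1 (Ubtf), against 25.8%. The 3 largest differences were 0.44 (0.27 to 0.62) for Nhp2, 0.43 (0.28 to 0.57) for Rrp12 and 0.34 (0.29 to 0.39) for Nop14, and the 3 lowest were -0.17 (-0.37 to 0.03) for Nop10, -0.11 (-0.30 to 0.07) for Polr1c and -0.10 (-0.32 to 0.12) for Noc4l. The intervals of these last 3 include 0, and their levels in all 4 libraries are given above.

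Under TGFB1 the median difference between the genotypes was nearer to 0. Again 0 of 41 members passed 1.5-fold, against 2.59% of all genes higher and 1.45% lower, and 32 members were higher and 9 lower in Hmga2-/- MEF. The median log2 difference was 0.07, close to that over all genes (0.04), and 59.0% of all genes were higher by any amount. The counting interval lay above 0 for 19 members, against 32.2% of all genes, and below 0 for 3, against 19.0%. The count of higher members depended on the scaling, with 28 higher and 13 lower by the median ratio and 23 and 18 by the upper quartile, against 35 and 6 and then 31 and 10 in the Ctrl libraries. The 3 highest were Bop1 at 0.23 (0.11 to 0.35, but -0.34 as the median over its transcripts), Npm1 at 0.21 (0.19 to 0.23) and Pno1 at 0.20 (0.10 to 0.29). The 3 lowest were Polr1a at -0.14 (-0.18 to -0.09), Utp15 at -0.09 (-0.16 to -0.02) and Heatr1 at -0.07 (-0.11 to -0.02).

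**Figure D3:**
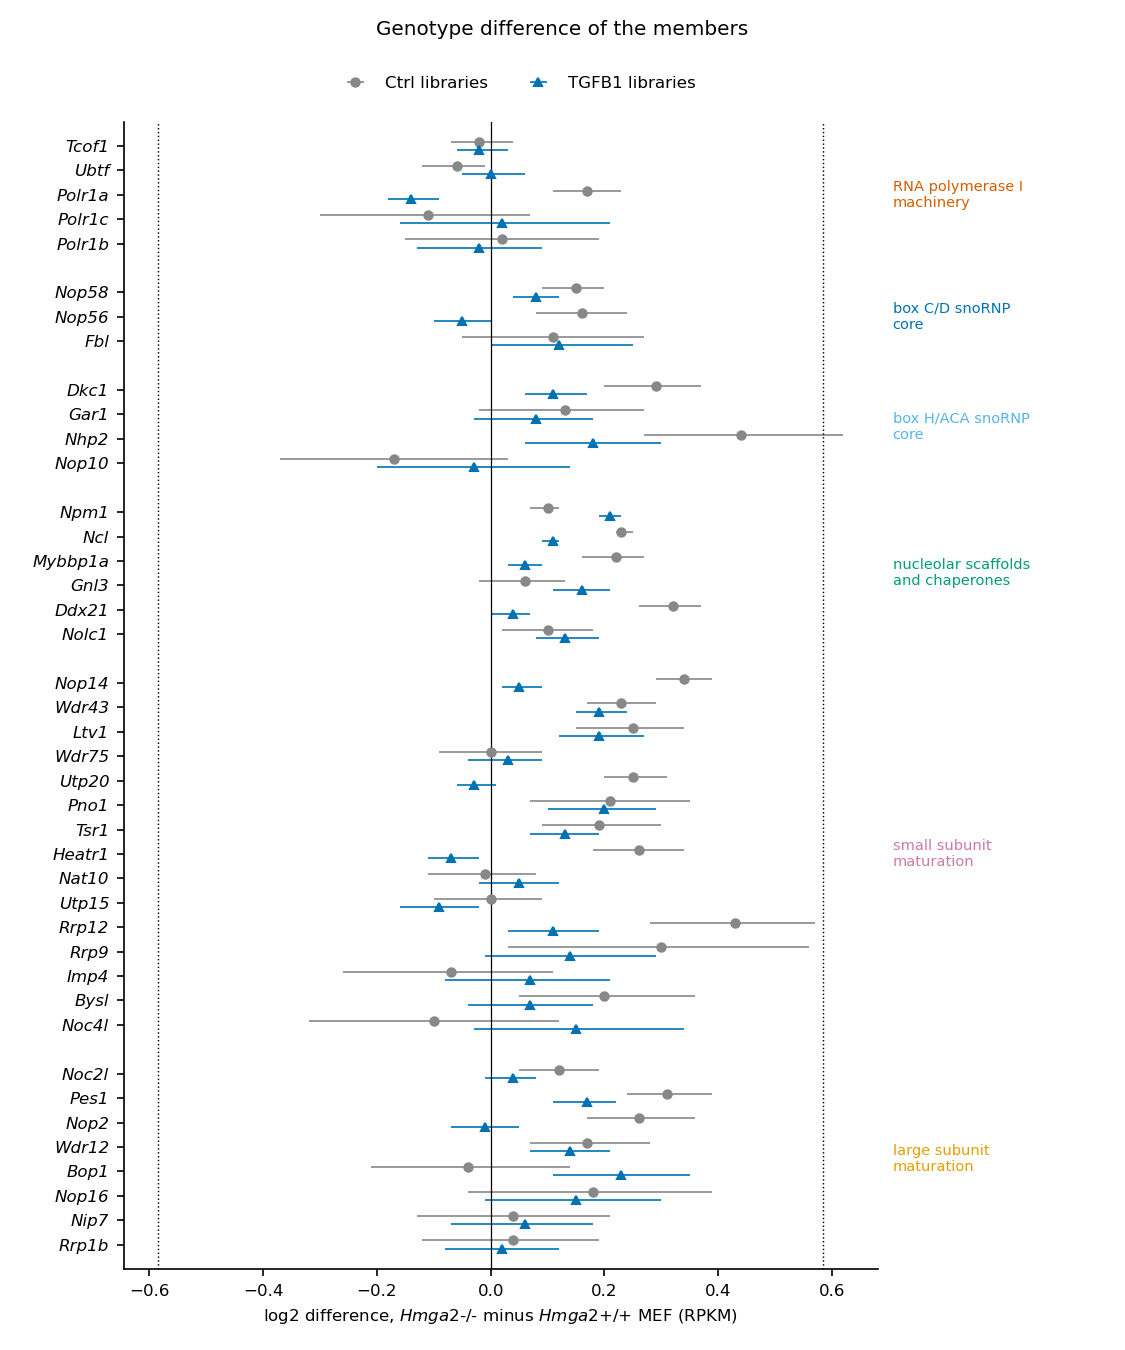
Log2 difference between Hmga2-/- and Hmga2+/+ MEF for each member, in the Ctrl libraries (grey circles) and the TGFB1 libraries (blue triangles), with 95% intervals of counting error. Dotted lines mark 1.5-fold, which no point reaches, and in each state 32 of 41 points lie right of 0 in the deposited scaling.

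Other genes of the pathway, taken from lists of known factors, rose in part. Of 90 further ribosome biogenesis factors that were expressed, 49 rose and 0 fell in Hmga2+/+ MEF and 52 rose and 0 fell in Hmga2-/- MEF, with medians of 0.66 and 0.65. The further polymerase I subunits and factors were as divided as the members of that role, with 6 of 11 rising in Hmga2+/+ MEF and 5 of 11 in Hmga2-/- MEF. Polr1e, a subunit of the enzyme, changed by 1.20 in Hmga2+/+ MEF and the termination factor Ttf1 by -0.17. Of the further small subunit factors 18 of 35 rose in each genotype, and all 35 had a positive change, from 0.13 (Utp3) to 1.28 (Nol10) in Hmga2+/+ MEF. Of the further large subunit factors 25 of 44 rose in Hmga2+/+ MEF and 29 in Hmga2-/- MEF. Mdn1, the giant ATPase that remodels the large subunit precursor, was highest in Hmga2+/+ MEF at 1.59 and changed by 0.96 in Hmga2-/- MEF, while the helicase Ddx55 changed by -0.31 and -0.12. The members and these lists were chosen with earlier results known, so that the larger share among the members is a description.

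The genes of ribosomal proteins and of DNA replication stayed mostly within 1.5-fold. Of 79 cytosolic ribosomal protein genes 1 rose and 3 fell in Hmga2+/+ MEF and 2 rose and 0 fell in Hmga2-/- MEF, with medians of 0.19 and 0.17, from -0.73 (Rps28) to 0.61 (Rps25) in Hmga2+/+ MEF. Many of these genes have near-identical pseudogenes and their levels are uncertain. Each again stands for its transcript with the longest gene body, and other transcripts were not tried for this list. Mean levels differed widely, such as 3.21 RPKM for Rpl35a and 387 RPKM for Rps23. Of 39 DNA replication and S phase genes 0 rose and 0 fell in Hmga2+/+ MEF and 1 rose (Rrm2, 0.74) in Hmga2-/- MEF, with medians of -0.09 and 0.05. The nuclear RNA exosome, which trims rRNA precursors, lay between, with 3 of 13 expressed genes rising in Hmga2+/+ MEF (median 0.41) and 7 in Hmga2-/- MEF (median 0.64).

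**Figure D4:**
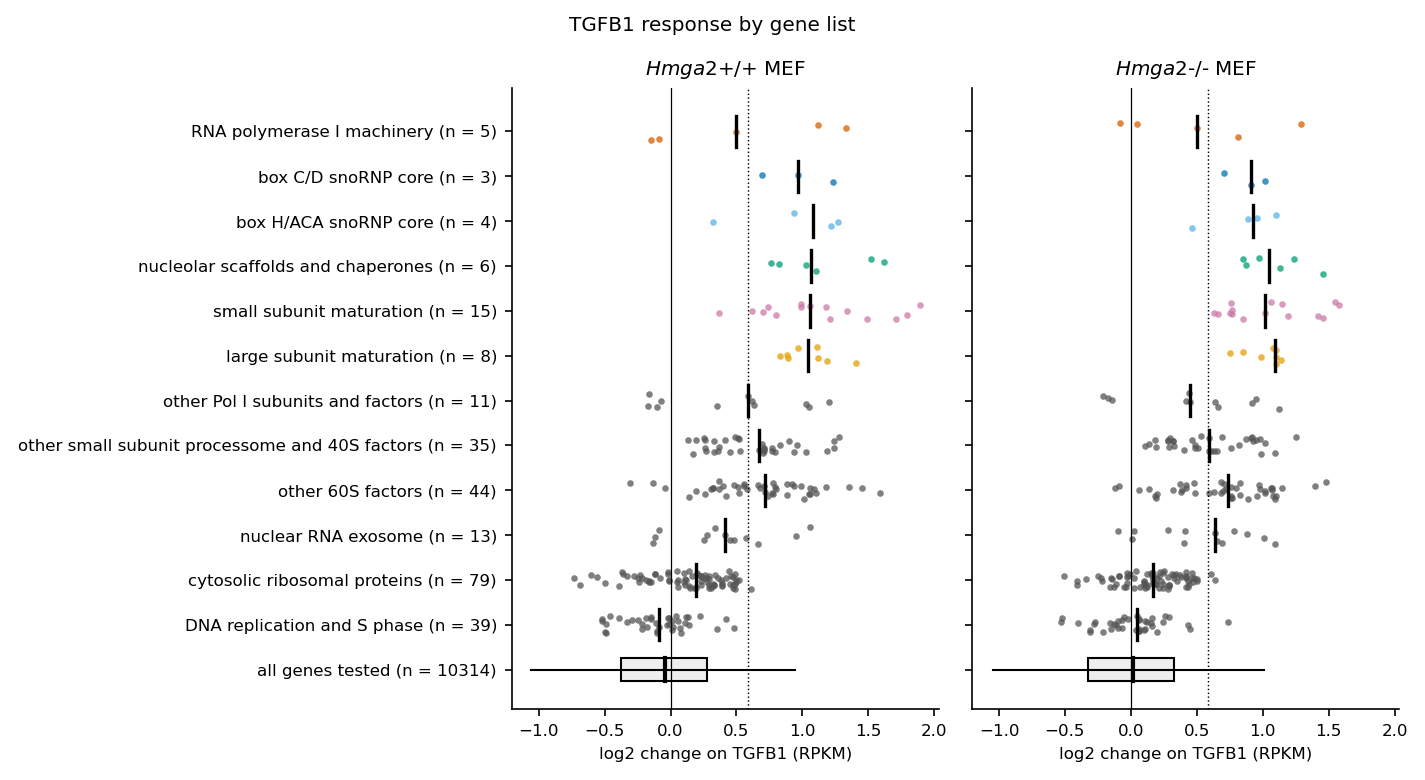
Log2 change on TGFB1 in Hmga2+/+ MEF (left) and Hmga2-/- MEF (right) for the members by role (coloured points), for other gene lists (dark grey points) and for all genes tested (box from the lower to the upper quartile, line from the 5th to the 95th percentile). Thick bars are medians and the dotted line marks 1.5-fold. The medians of the member roles other than RNA polymerase I lie between 0.91 and 1.09, and those of the ribosomal proteins at 0.19 and 0.17.

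The MYC network was examined because these proteins bind the E-box. Myc stood at 5.17 RPKM in Hmga2+/+ Ctrl, 19.3 in Hmga2+/+ TGFB1, 7.08 in Hmga2-/- Ctrl and 25.2 in Hmga2-/- TGFB1, a log2 change of 1.90 and 1.83. The median member changed by 1.03 and 0.97, and Rrp12, the member with the largest change, by 1.89 and 1.58. Max, the partner of MYC, changed by 0.15 and 0.19. Several genes of proteins that oppose MYC fell. Mxd4 went from 17.2 to 5.41 RPKM and from 21.2 to 7.58 RPKM, Mxd3 from 10.2 to 4.63 RPKM and from 10.2 to 3.97 RPKM, and Mxi1 from 4.73 to 2.51 RPKM and from 4.73 to 2.97 RPKM. Mxd1, at -0.60 and -0.51 on the log2 scale, passed 1.5-fold in Hmga2+/+ MEF alone, and Mnt, at -0.52 and -0.38, in neither genotype. Mga, another MAX partner, changed by 0.36 and -0.01. Of 9 expressed genes of this list 1 rose and 4 fell in Hmga2+/+ MEF, and 1 rose and 3 fell in Hmga2-/- MEF. Whether these levels bear on those of the ribosome biogenesis genes was not tested.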

How the data were processed

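RNA of the 4 libraries was sequenced and the reads were processed by the authors with Trimmomatic, HISAT2 2.1.0 (mm10) and HOMER. The deposited table holds RPKM values of the authors for 63759 UCSC known transcripts, counted over exons on the strand of the transcript per the file header. The methods of the study mention duplicates of one experiment, while the table holds 1 column per condition, and whether duplicates were merged was not given in the sources used here.

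Transcripts were given GENCODE names where at least 50% of their length overlapped a gene on the same strand (90.5% named), and the transcript with the longest gene body stood for a gene. Reads were recovered from the RPKM steps and transcript lengths. For each comparison the log2 ratio of RPKM was taken, with 0 set to 0.001, and a change was called at 1.5-fold. Exact binomial intervals (95%) were computed from the reads (scipy 1.17.1) and cover counting error only. The interval of a difference of 2 log2 changes is a normal approximation. With 1 library per condition no test was run. The scripts were tested on simulated data. The members and gene lists were chosen with earlier results of these data known. Values in every library were to be given for members past 1.5-fold and for the 3 highest and 3 lowest of each comparison. At least 1 member of each role was to be included. They were given for all 41, also for Tcof1, which was neither past 1.5-fold nor among the 3 highest or lowest. Outside the members, for each list, the genes with the largest increase and decrease were eligible. Alternatives were other pseudocounts, filters, thresholds and library scalings, and the omission of members that share sequence.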

Additional observations from a re-analysis of the deposited data

Results flagged for a closer look

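For Polr1a and Heatr1 the genotype difference had opposite signs without and with TGFB1, with both counting intervals off 0. Further members turned sign with an interval that includes 0. The differences given here were not tested. Polr1a was higher in Hmga2-/- MEF in the Ctrl libraries (log2 difference 0.17) and lower under TGFB1 (-0.14), a change of -0.31. A transcript of Polr1a of 1497 bases was not higher in Hmga2-/- Ctrl, at 10.6 RPKM against 10.9 RPKM in Hmga2+/+ Ctrl. The remaining transcripts of the gene were higher there. Heatr1 did the same, from 0.26 to -0.07, a change of -0.33. Polr1c changed on TGFB1 by -0.09 in Hmga2+/+ MEF and by 0.05 in Hmga2-/- MEF, a difference of 0.14 whose counting interval (-0.12 to 0.39) includes 0.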

How the results depend on the processing

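Of 984 member changes recomputed under the alternatives, 901 moved by no more than the distance from the value to the edge of its counting interval and 83 by more. No change called at 1.5-fold turned its sign, but 24 smaller ones did, in 13 members: 17 in the genotype comparison under TGFB1, 6 in that of the Ctrl libraries and 1 in the TGFB1 response of Hmga2-/- MEF (Polr1c). With a pseudocount of 1 RPKM the median log2 change on TGFB1 was 0.96 in Hmga2+/+ MEF and 0.90 in Hmga2-/- MEF. In Hmga2-/- MEF it was 0.94 with libraries rescaled by the median ratio, 0.89 by the upper quartile, and 0.99 without the 4 members that share over 10% of their stretches with other genes, an omission chosen after seeing the data. At a threshold of 2-fold 21 and 19 members rose. At a lower threshold of 0.32 on the log2 scale 3 members (Nhp2, Rrp12, Nop14) were higher in Hmga2-/- than in Hmga2+/+ Ctrl, against 6.05% of all genes. At that threshold 1 member (Heatr1) had a smaller response in Hmga2-/- MEF, a count for which the share of all genes was not computed. Depth did not limit the members, which had at least 214 reads, but the spread between cultures is unknown. No replicate block could be fitted within a comparison, since no group had a second library. A fit of the TGFB1 effect that takes the genotypes as replicates, with genotype as a block, was not run.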
